A study of Homo sapiens with 12 samples.

Results

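The peroxiredoxin, thioredoxin and glutathione enzymes are 10 genes whose products remove peroxides or keep the removing enzymes reduced. They were chosen by gene symbol, and all 10 were found among the 20003 symbols with expression values. They are the peroxiredoxins PRDX1, PRDX2, PRDX3, PRDX5 and PRDX6, the thioredoxin gene TXN, the glutathione peroxidases GPX1 and GPX4, the glutathione reductase GSR and the catalase CAT. Expression was measured by mRNA-seq in a pair of human leukemia cell lines, with 4 groups of 3 samples each and 12 samples in all. NB4 comes from acute promyelocytic leukemia and carries PML-RARα, a fusion gene of the retinoic acid receptor. Kasumi-1 comes from acute myeloid leukemia and carries the AML1-ETO fusion gene. In each line the treated samples received OGP46, a kaurene diterpenoid made from oridonin, at 1 µM for 48 h, and the control samples received DMSO for the same time. Each line descends from a single leukemia and carries its fusion gene in control and OGP46 samples alike. A legend of the study gives a longer incubation than the labels and the methods. The same legend calls its panels representative of 3 independent experiments, without saying whether the samples are these. The labels do not say whether the 3 samples of a group came from separate cultures. The p-values therefore rest on the spread between these samples, which may be technical.

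Peroxiredoxins reduce hydrogen peroxide with a reactive cysteine. Most of them are then reduced by thioredoxin, which takes its electrons from NADPH through thioredoxin reductase (TXNRD1). Glutathione peroxidases reduce peroxides with glutathione, and glutathione reductase returns the oxidised glutathione to its reduced form, again with NADPH. Catalase splits hydrogen peroxide in the peroxisome without either cofactor. In myeloid cells the same peroxides are also used by enzymes of the granules, such as myeloperoxidase.

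The values are FPKM, fragment numbers corrected for the length of the transcript and the size of the library, so the levels of different genes can be set side by side per length. The sum of FPKM over all genes was 248207 to 310262 per sample, and 9339 to 9746 genes reached 1 FPKM. The sequencing depth behind each value is unknown, so precision rests on the spread of 3 samples. The markers chosen for Kasumi-1 (RUNX1T1, CD34, KIT and HLA-DRA) summed to 215 to 265 FPKM in Kasumi-1 samples and to 0.327 to 2.88 FPKM in NB4 samples. The highest of these NB4 values was in control sample 3, where CD34 was at 1.35% and KIT at 0.95% of their Kasumi-1 control means. The granule genes MPO, ELANE, AZU1 and PRTN3, chosen as markers of promyelocytes, were higher in Kasumi-1 (7690 to 11800 FPKM in sum) than in NB4 (1580 to 3860 FPKM) and so did not mark NB4. Their sum was lower with OGP46 in all 3 NB4 pairs, and in Kasumi-1 it was 9530 to 11800 FPKM in control and 7690 to 8870 FPKM in OGP46 samples, without overlap. ELANE was only 0.321 to 14.5 FPKM in NB4 samples. The monocyte and macrophage markers summed to 15.2 to 16.7 FPKM in NB4 control and 23.6 to 27.8 FPKM in NB4 OGP46 samples, and to 13.9 to 18.4 FPKM in Kasumi-1 control and 19.4 to 22.7 FPKM in Kasumi-1 OGP46 samples. This sum was higher with OGP46 in both lines, while in Kasumi-1 each of its 5 genes overlapped between the groups and CD14 was at 0 to 0.0281 FPKM. HLA-DRA in Kasumi-1 was at 12.9, 10.3 and 11.2 FPKM in control and 8.27, 5.32 and 6.61 FPKM in OGP46 samples. The part of these shifts in the results was not tested. Erythroid markers, which matter because red cells are rich in PRDX2 and CAT, were at 0 to 0.184 FPKM in every sample.

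Fold changes are differences of the mean log2(FPKM + 0.1) and were tested with limma, a linear model fitted across all genes, with Benjamini-Hochberg adjustment. A gene is said to have risen or fallen where its adjusted p was below 0.05, and to be called where its log2 fold change was also at least 0.58 in size, a 1.49-fold change. Control and OGP46 samples carry the numbers 1 to 3, and same-numbered samples of a line tended to deviate together (r = 0.157 to 0.622). The fit with the replicate number as a block is therefore given beside the fit without it. The labels state no pairing, so the block was inferred from the same data that it is used to test. With 3 samples against 3, a two-sided exact permutation test of a single gene cannot go below p = 0.1. In bulk samples a lower level can come from fewer cells of a type or from less RNA per cell, and these cannot be told apart.

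Stretches of promoter sequence are shown for PRDX2 and GPX4, the members that differed most between the lines. That of GPX1, which changed most with OGP46 in Kasumi-1, is shown too. For comparison, stretches are also shown for TXNRD1 and for GCLM, the regulatory subunit of glutamate-cysteine ligase, which rose in NB4 cells. Each sequence is from RefSeq (GRCh38.p14), on the strand of the gene and 5′ to 3′, and its last base lies just before a start annotated there. Windows were found for 7 of the 10 members. None was found for PRDX1, PRDX6 and GSR, although GSR was the member that changed most with OGP46 in NB4. Capitals mark a box of the letters CCAAT, the core of the antioxidant response element (TGACNNNGC) or a GC box (GGGCGG), each searched on both strands, so that some appear as their reverse complement.
PRDX2: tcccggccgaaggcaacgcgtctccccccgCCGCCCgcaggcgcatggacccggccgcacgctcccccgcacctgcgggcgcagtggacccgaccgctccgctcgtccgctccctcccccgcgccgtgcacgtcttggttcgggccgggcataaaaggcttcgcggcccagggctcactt
GPX4: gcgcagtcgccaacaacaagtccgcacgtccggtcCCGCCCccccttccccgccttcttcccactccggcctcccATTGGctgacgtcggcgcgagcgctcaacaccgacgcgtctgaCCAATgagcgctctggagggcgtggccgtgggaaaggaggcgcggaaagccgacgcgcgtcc
GPX1: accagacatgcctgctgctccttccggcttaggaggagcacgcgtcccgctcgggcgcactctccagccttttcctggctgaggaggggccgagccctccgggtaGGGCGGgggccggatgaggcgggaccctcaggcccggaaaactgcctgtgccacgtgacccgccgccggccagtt
TXNRD1: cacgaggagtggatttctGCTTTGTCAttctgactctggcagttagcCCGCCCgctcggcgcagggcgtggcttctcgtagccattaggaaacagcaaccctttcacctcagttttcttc
GCLM: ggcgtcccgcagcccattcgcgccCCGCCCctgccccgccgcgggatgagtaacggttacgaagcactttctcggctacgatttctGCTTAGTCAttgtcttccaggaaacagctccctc
The stretches are chr19:12801801-12801980, chr19:1103814-1103993, chr3:49358354-49358533, chr12:104286912-104287031 and chr1:93909431-93909550, with PRDX2, GPX1 and GCLM on the minus strand. By the GENCODE gene positions given below, the whole GPX1 stretch and the last bases of the PRDX2 and GPX4 stretches lie inside these genes. Distances are counted from the start used for each stretch, and would differ if counted from the GENCODE boundaries of these genes. The PRDX2 stretch holds 1 GC box, 150 bases before the start. GPX4 holds a GC box at 145 bases and CCAAT boxes at 105 and 62 bases, and GPX1 holds a GC box at 75 bases. In 250 bases before each annotated start, the antioxidant response element core was found in none of the windows of the 7 members. It was found 102 bases before the TXNRD1 start and 34 bases before the GCLM start, and not in the windows of SRXN1, GCLC and SESN2. Among 35116 windows of this length, 10.9% held this core, 42.6% a GC box, 32.0% a CCAAT box and 10.7% a TATA box (TATAAA). The TXN window held overlapping TATA matches at 32 and 30 bases, and the CAT window held 5 CCAAT matches. These matches describe letters only.

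In NB4 control samples the members spanned a range from TXN at 252 ± 12.6 FPKM (mean ± SD, n = 3) to GSR at 13.9 ± 0.461 FPKM. Between these, the order was GPX1, PRDX1, PRDX3, PRDX5, PRDX6, PRDX2, CAT and GPX4. The ranges of TXN and GPX1 overlapped, as did those of PRDX5 and PRDX6, and all other neighbours were apart. The order of the means was the same in the NB4 samples given OGP46. GPX1 came first in Kasumi-1 control samples at 432 ± 27.3 FPKM, followed by TXN, PRDX1, PRDX6, PRDX3, PRDX5, GPX4, CAT, GSR and last PRDX2 at 10.5 ± 3.54 FPKM. The ranges of PRDX6 and PRDX3, of PRDX3 and PRDX5, of PRDX5 and GPX4 and of GSR and PRDX2 overlapped. This order also held with OGP46, where PRDX5 and GPX4 and GSR and PRDX2 no longer overlapped. Most members ranked high among the 20003 genes, the highest being GPX1 at 98 in Kasumi-1 control cells and 82 in Kasumi-1 OGP46 cells. In NB4 control cells CAT ranked 752, GPX4 1321 and GSR 2997. In Kasumi-1 control cells GSR ranked 3327 and PRDX2 3863.

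**Figure D1:**
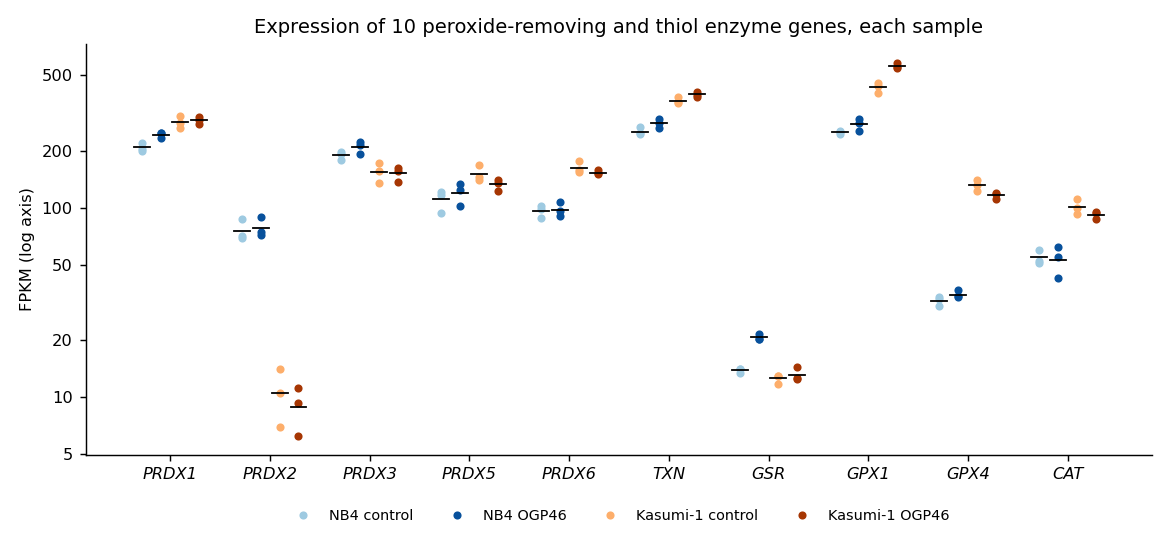
Level of each of the 10 members in every sample, in FPKM on a log axis, with 1 point per sample and a bar at the mean of the 3 samples of a group. PRDX2 stands apart, with 69.5 to 88.9 FPKM in NB4 and 6.23 to 14.0 FPKM in Kasumi-1, and GSR is highest in the OGP46 samples of NB4, at 20.2 to 21.6 FPKM.

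On GRCh38 with the GENCODE 29 annotation, PRDX1 lies at chr1:45511036-45523047 (minus strand), PRDX2 at chr19:12796820-12801859 (minus strand) and PRDX3 at chr10:119167703-119178833 (minus strand). PRDX5 lies at chr11:64318088-64321811 (plus strand) and PRDX6 at chr1:173477266-173488807 (plus strand). TXN lies at chr9:110243811-110256640 (minus strand), GPX1 at chr3:49357171-49358600 (minus strand) and GPX4 at chr19:1103926-1106791 (plus strand). GSR lies at chr8:30678061-30727999 (minus strand) and CAT at chr11:34438925-34472062 (plus strand). GPX1 is typed there as a polymorphic pseudogene although it is the gene of a working enzyme, and the other 9 members are typed as protein coding. PRDX2 lies wholly within HOOK2 on the same strand, and a long antisense RNA gene covers 5027 of its 5040 bases. HOOK2 was at only 0.606 FPKM in NB4 and 1.69 FPKM in Kasumi-1 control cells. PRDX1 overlaps MMACHC on the other strand by 2347 bases. MMACHC was at 4.37 FPKM in NB4 control and 2.98 FPKM in NB4 OGP46 samples, far under PRDX1. The annotation names 1 pseudogene of PRDX1, 4 of PRDX2, 4 of PRDX3, 7 of TXN and 2 of GPX1, so fragments of these genes may have been shared with near-identical copies.

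The control cells of the lines differed in most of these enzymes. NB4 control cells had 7.20-fold the PRDX2 level of Kasumi-1 control cells, whereas Kasumi-1 had 4.06-fold the GPX4, 1.85-fold the CAT, 1.73-fold the GPX1 and 1.70-fold the PRDX6 level of NB4. These 5 of the 10 members were called by limma, 1 higher and 4 lower in NB4, where 52.4% of all 12302 genes tested were called. By adjusted p alone 9 members differed (PRDX3 not in every fit that left out a sample), against 74.5% of all genes, and the samples of the lines did not overlap in any of the 10 members, against 77.7% of all genes. The share of members was near the share of all genes by the first count. By the others it was higher, but it rests on only 10 members, and no difference of shares was tested. Their median log2 fold change was -0.50, against -0.10 over all genes. The libraries of the lines may also differ in ways that the labels do not give, and line and library cannot be told apart.

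PRDX2, a cytosolic peroxiredoxin known from red cells, was at 70.5, 86.7 and 69.5 FPKM in NB4 control and at 10.5, 14.0 and 6.94 FPKM in Kasumi-1 control samples. Every NB4 sample was far above every Kasumi-1 sample, and sample 2 was the highest of its group in both lines. The log2 fold change of NB4 over Kasumi-1 was 2.89 (SE 0.22, limma adjusted p = 3.28e-06). HOOK2, which contains PRDX2, differed the other way, with a log2 fold change of -1.34. The part of the overlapping genes in the PRDX2 values was not tested, and no level is given here for the antisense gene. PRDX6, which works with glutathione and not with thioredoxin, was at 97.8, 103 and 87.8 FPKM in NB4 and at 154, 177 and 158 FPKM in Kasumi-1 control samples. All Kasumi-1 values were above all NB4 values, with a log2 fold change of -0.76 (limma adjusted p = 4.1e-05), which became -0.56 after TPM scaling and was then under the fold change asked for. The other peroxiredoxins differed less. PRDX1, the other abundant cytosolic enzyme, and PRDX5, found in mitochondria, peroxisomes and cytosol, were lower in NB4, with log2 fold changes of -0.45 and -0.46 (limma adjusted p = 0.000848 and 0.00547). PRDX3, the mitochondrial enzyme, was higher in NB4 by 0.29 (limma adjusted p = 0.0198), and its adjusted p was 0.0568, 0.0552 and 0.0638 without NB4 control sample 1, NB4 control sample 2 or Kasumi-1 control sample 3.

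GPX4, which reduces lipid peroxides inside membranes and so protects cells from ferroptosis, was at 33.7, 30.4 and 32.9 FPKM in NB4 control and at 122, 139.5 and 132 FPKM in Kasumi-1 control samples. No sample of either line came near the other line, and the log2 fold change was -2.02 (SE 0.07, limma adjusted p = 7.11e-08). The CAT level was 52.5, 60.0 and 51.3 FPKM in NB4 and 99.3, 111 and 93.0 FPKM in Kasumi-1 control samples. Again the lines did not overlap, and the log2 fold change was -0.89 (limma adjusted p = 2.21e-05). GPX1, the abundant soluble glutathione peroxidase, was at 254, 246 and 251 FPKM in NB4 and at 402, 456 and 437 FPKM in Kasumi-1 control samples. The NB4 samples lay close together under all Kasumi-1 samples, with a log2 fold change of -0.78 (limma adjusted p = 1.3e-05). TXN, the electron donor of the peroxiredoxins, was lower in NB4, with a log2 fold change of -0.54 (limma adjusted p = 0.000131), short of the fold change asked for except without NB4 control sample 2 (-0.58, adjusted p = 0.000268). GSR was the only member that did not pass, at 13.9 ± 0.461 FPKM in NB4 and 12.5 ± 0.712 FPKM in Kasumi-1, with a log2 fold change of 0.15 (95% interval -0.03 to 0.32, limma adjusted p = 0.111), and it passed after TPM scaling, at 0.35 (adjusted p = 0.00185). Without NB4 control sample 3, the sample with the highest Kasumi-1 marker sum in that line, the log2 fold changes of PRDX2, GPX4, CAT, GPX1 and PRDX6 were 2.94, -2.03, -0.84, -0.79 and -0.70.

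**Figure D2:**
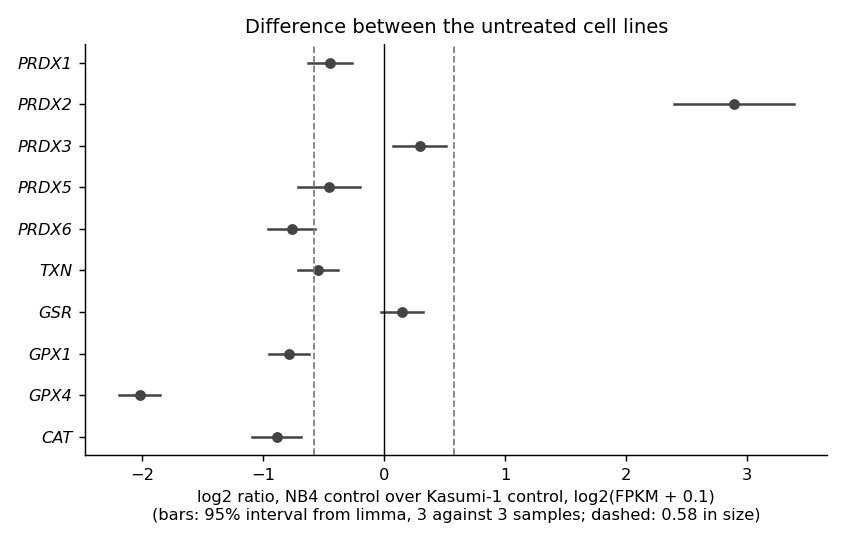
log2 fold change of NB4 control over Kasumi-1 control for the 10 members, with the 95% interval of limma and dashed lines at the fold change asked for. PRDX2 lies farthest to the NB4 side at 2.89, and GPX4 lies farthest to the Kasumi-1 side at -2.02.

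With OGP46, NB4 cells had 1.49-fold the GSR level of their controls, and no other member moved as far. GSR was at 14.1, 14.2 and 13.3 FPKM in NB4 control and at 20.3, 21.6 and 20.2 FPKM in NB4 OGP46 samples. All OGP46 samples were above all controls, and the spread within each group was small. The log2 fold change was 0.57 (SE 0.08, 95% interval 0.40 to 0.75, limma adjusted p = 0.0278, and 0.00106 with the block), so GSR rose but was just under the fold change of 0.58 asked for. The values of the 3 pairs were 0.52, 0.61 and 0.59. Over all genes the median log2 fold change in NB4 was 0.18, and a setting that brings this median close to 0, median centring, left GSR at 0.35 (adjusted p = 0.162, and 0.0117 with the block). Without the block, GSR kept a limma adjusted p below 0.05 when OGP46 sample 2 was left out (0.0318). The adjusted p was 0.05, 0.0647 and 0.134 without control sample 1, 2 or 3 and 0.0662 and 0.084 without OGP46 sample 1 or 3, at log2 fold changes of 0.55 to 0.59.

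PRDX1 was the other member whose groups did not overlap in NB4, at 220.5, 204 and 199 FPKM in control and 247, 233 and 247 FPKM in OGP46 samples. Its lowest OGP46 sample was above its highest control. The log2 fold change was 0.22 (SE 0.07, 95% interval 0.05 to 0.39, limma adjusted p = 0.104, and 0.0499 with the block), close to the median of all genes, and it was 0.00 after median centring. The 2 members without overlap are to be read against 34.7% of all 11750 genes tested.

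The other 8 members did not pass in NB4 in either fit. TXN, at 246, 267 and 244 FPKM in control and 263, 279 and 294 FPKM in OGP46 samples, had a log2 fold change of 0.14 (95% interval -0.03 to 0.32). PRDX3 had 0.14, GPX1 0.14, PRDX5 0.12, GPX4 0.11, PRDX2 0.05, PRDX6 0.02 and CAT -0.05 as log2 fold change, with limma adjusted p from 0.239 (TXN) to 0.891 (PRDX6). All of these lie under the median of all genes, and all but CAT, which was below 0 from the start, changed sign after median centring. The 95% intervals were widest for PRDX5 (-0.18 to 0.42) and CAT (-0.37 to 0.26). The CAT values were 52.5, 60.0 and 51.3 FPKM in control and 42.6, 61.9 and 55.2 FPKM in OGP46 samples, so the groups overlapped.

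Counted over the list, 0 of the 10 members were called in NB4 by limma, with or without the block, where 1.56% of all genes were called without it (170 up and 13 down) and 6.21% with it (595 up and 135 down, or 188 up and 203 down with median centring as well). At an unadjusted p below 0.05, 2 members were higher and none lower, beside 3233 higher and 189 lower of the 11750 genes tested. By adjusted p alone 1 member, GSR, rose, against 2.57% of all genes, and with the block 2 rose, GSR and PRDX1, against 22.9% of all genes. The log2 fold change was above 0 for 9 of the 10 members, with a median of 0.13, against 0.18 over all genes.

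In Kasumi-1 cells the member that moved most was GPX1, with 1.30-fold its control level in OGP46 samples. It was at 402, 456 and 437 FPKM in control and at 554, 543 and 583 FPKM in OGP46 samples. All 3 OGP46 samples were above all controls. The log2 fold change was 0.38 (SE 0.07, 95% interval 0.21 to 0.54, limma adjusted p = 0.079), and with the replicate block the adjusted p was 0.0217, so GPX1 rose in the blocked fit alone. After TPM scaling it was 0.40 (adjusted p = 0.0342). GPX1 is a selenoprotein, as are GPX4 and TXNRD1. GPX4 was at 122, 139.5 and 132 FPKM in control and at 111, 120.2 and 118 FPKM in OGP46 samples. Every OGP46 sample was under every control, but the log2 fold change of -0.17 (95% interval -0.32 to -0.02) did not pass (limma adjusted p = 0.259, and 0.0992 with the block).

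None of the other 8 members passed in Kasumi-1. GSR was at 11.7, 12.9 and 13.0 FPKM in control and 12.6, 12.4 and 14.4 FPKM in OGP46 samples. These groups overlapped, with a log2 fold change of 0.07 (95% interval -0.11 to 0.24). PRDX2 was at 10.5, 14.0 and 6.94 FPKM in control and 9.32, 11.2 and 6.23 FPKM in OGP46 samples. It was lower with OGP46 in each of the 3 pairs, but the pairs were far apart, and the log2 fold change of -0.22 had a 95% interval of -0.78 to 0.35 (limma adjusted p = 0.709, and 0.0954 with the block). PRDX5 had a log2 fold change of -0.19, CAT -0.14, PRDX6 -0.09, PRDX3 -0.03, PRDX1 0.03 and TXN 0.11. Of the peroxiredoxins, only PRDX1 was above 0.

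Over the list in Kasumi-1, 0 of the 10 members were called by limma with or without the block, where 0.0338% of all 11835 genes were called without it (2 up and 2 down) and 0.617% with it (32 up and 41 down, or 26 up and 67 down with median centring as well). At an unadjusted p below 0.05, 1 member was higher and 1 lower, beside 1420 higher and 432 lower of all genes. By adjusted p alone no member passed, against 0.0845% of all genes, and with the block 1 did, GPX1, against 3.56% of all genes. The groups did not overlap for 2 members, GPX1 and GPX4, against 22.6% of all genes. The members' median log2 fold change was -0.06, with 4 of 10 above 0, against 0.05 over all genes.

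**Figure D3:**
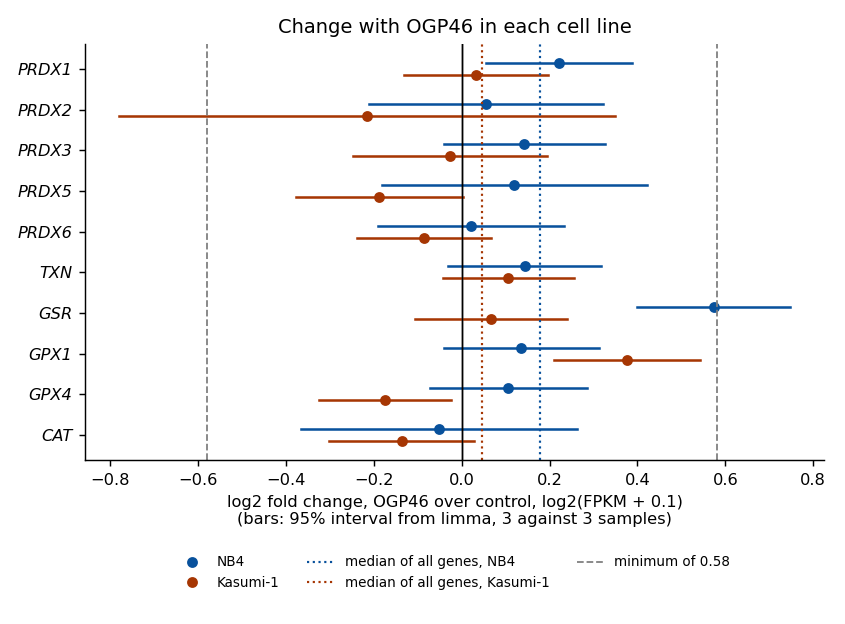
log2 fold change of OGP46 over control for the 10 members in NB4 and in Kasumi-1 cells, with the 95% interval of limma and dashed lines at the fold change asked for. GSR in NB4 (0.57) and GPX1 in Kasumi-1 (0.38) lie farthest from 0.

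The effect of OGP46 was compared between the lines as the interaction of line and treatment over the 12 samples. Here 0 of the 10 members passed in the limma fit without the block, as did 0% of all 12309 genes, while 3 members (2 higher and 1 lower in NB4) and 1225 and 123 of all genes were past an unadjusted p of 0.05. With the block 1 member, GSR, passed, against 1.93% of all genes. The log2 fold change of GSR was larger in NB4 by 0.51 (SE 0.10, 95% interval 0.28 to 0.73, limma adjusted p = 0.104, and 0.0311 with the block). With the block, this difference was 0.36 after median centring (adjusted p = 0.0452) and 0.36 after TPM scaling (adjusted p = 0.0505). For GPX1 the difference was -0.24 (95% interval -0.46 to -0.02, limma adjusted p = 0.419, and 0.219 with the block), so its larger change in Kasumi-1 was not shown to differ from that in NB4. It did pass with the block and median centring (-0.39, adjusted p = 0.0422) or TPM scaling (-0.39, adjusted p = 0.028). The pairs of GPX1 gave log2 ratios of 0.14, 0.04 and 0.23 in NB4 and of 0.46, 0.25 and 0.42 in Kasumi-1.

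**Figure D4:**
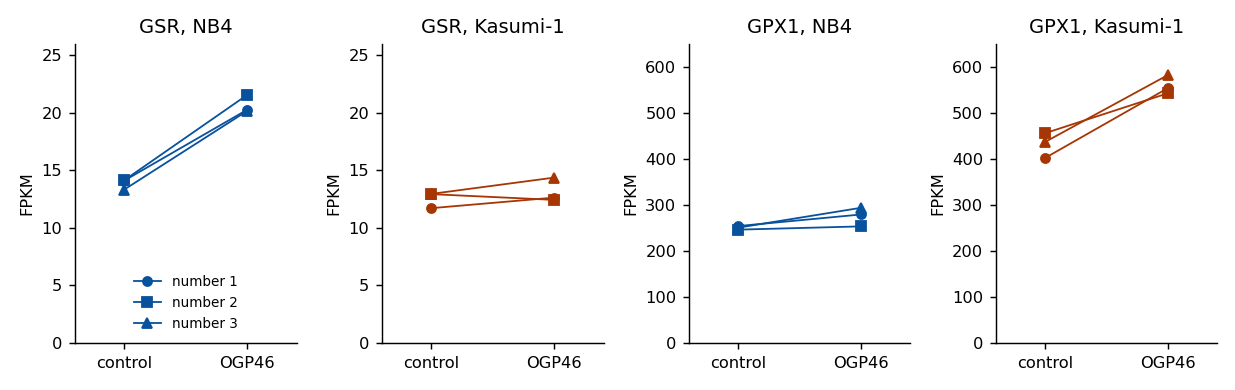
GSR and GPX1 in FPKM in each same-numbered pair of control and OGP46 samples, with 1 line per pair. The GSR lines climb in all 3 NB4 pairs, while in Kasumi-1 they rise a little in pairs 1 and 3 and fall a little in pair 2. The GPX1 lines rise in all 6 pairs, most in Kasumi-1 pair 1 and least in NB4 pair 2 (246 to 253 FPKM).

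The members work with other genes, and 60 of these were listed, of which 58 had values. In NB4, 47 were tested and 1 was called without the block, GCLM, and 3 with it, GCLM, SESN2 and SLC7A11, all up. This is 1 of 47 beside the 1.56% and 3 of 47 beside the 6.21% of all genes. The list's median log2 fold change was 0.19, against 0.18 over all genes. GCLM, the subunit that makes glutamate-cysteine ligase more active in glutathione synthesis, was at 5.21, 4.35 and 4.60 FPKM in NB4 control and 8.31, 6.81 and 8.02 FPKM in OGP46 samples. All OGP46 samples were higher, with a log2 fold change of 0.70 (SE 0.12, limma adjusted p = 0.0335, and 0.000659 with the block). Its call without the block was lost when any sample but OGP46 sample 2 was left out, and after TPM scaling (0.57) or median centring (0.48). SLC7A11, which imports cystine for that synthesis, was at 4.70, 2.30 and 2.28 FPKM in control and 7.13, 4.55 and 4.69 FPKM in OGP46 samples. It was higher in each pair, and sample 1 was the highest of both groups, and its log2 fold change of 0.85 passed with the block alone (limma adjusted p = 0.109, and 0.000589 with the block). SESN2, a stress-inducible sestrin, had a log2 fold change of 1.02 (limma adjusted p = 0.0712, and 0.000613 with the block).

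TXNRD1, which reduces thioredoxin, was at 75.5, 73.2 and 78.7 FPKM in NB4 control and 108, 96.7 and 117 FPKM in OGP46 samples. SRXN1, the sulfiredoxin that rescues overoxidised peroxiredoxins, was at 14.4, 13.1 and 13.3 FPKM in control and 19.1, 19.4 and 20.6 FPKM in OGP46 samples. The groups of both genes were apart, as in 14 of the 47 genes of the list tested, against 34.7% of all genes. Both rose without reaching the fold change asked for, by 0.50 and 0.53 on the log2 scale (limma adjusted p = 0.0354 and 0.0299, and 0.00141 and 0.002 with the block). Of the other partners in NB4, the log2 fold change was 0.19 for GCLC, the catalytic subunit beside GCLM, 0.15 for GSS, the glutathione synthetase, and 0.06 for PRDX4, the peroxiredoxin of the endoplasmic reticulum. SOD1 and SOD2, the superoxide dismutases that make hydrogen peroxide, had 0.12 and 0.14. None of these 5 passed in either fit, and all 5 changed sign after median centring.

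In Kasumi-1, 0 of the 50 genes of this list that were tested were called by limma in either fit, with 10 higher and 3 lower at an unadjusted p below 0.05, beside 1420 and 432 of all 11835 genes. By adjusted p alone with the block, which 3.56% of all genes passed, TXNRD1 (0.26, adjusted p = 0.0342) and the glutaredoxin GLRX (0.32, adjusted p = 0.0315) rose and TXNIP (-0.38, adjusted p = 0.0109) fell. TXNRD1 was at 39.3, 39.3 and 44.1 FPKM in Kasumi-1 control and 47.8, 45.6 and 53.8 FPKM in OGP46 samples, without overlap. The groups were apart in 13 of the 50 genes of the list, against 22.6% of all genes. TXNIP, which binds and inhibits thioredoxin, was at 36.8, 20.2 and 32.2 FPKM in NB4 control and 40.9, 25.4 and 46.6 FPKM in NB4 OGP46 samples. It was at 43.2, 39.1 and 34.0 FPKM in Kasumi-1 control and 34.8, 29.7 and 25.0 FPKM in Kasumi-1 OGP46 samples. TXNIP was higher with OGP46 in all 3 NB4 pairs and lower in all 3 Kasumi-1 pairs, although control and OGP46 samples overlapped in each line. The difference of its log2 fold change between the lines was 0.72 (limma adjusted p = 0.457, and 0.0165 with the block). In the interaction, 0 of 51 genes of the list passed without the block and 4 with it, against the 1.93% of all genes. The log2 fold changes of SESN2 and TXNIP were higher in NB4, and those of the sestrin SESN3 and the glutathione transferase GSTM1 lower. GSTM1 was at 0 FPKM in all NB4 OGP46 samples and at most 0.220 FPKM in NB4 control samples. Too low to be tested in NB4 alone, it entered the interaction only through its Kasumi-1 values.

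**Figure D5:**
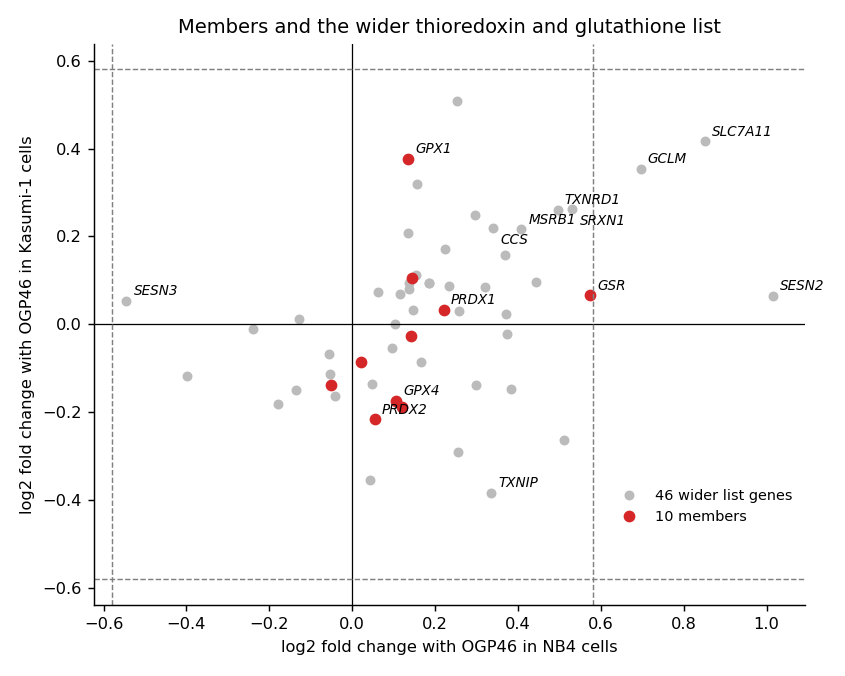
log2 fold change with OGP46 in NB4 (horizontal axis) and in Kasumi-1 cells (vertical axis) for the 10 members and for 46 genes of the wider list that were tested in both lines, with dashed lines at the fold change asked for. GSR lies at 0.57 and 0.07, next to TXNRD1 and SRXN1 on the horizontal axis, and GCLM, SLC7A11 and SESN2 lie beyond the right dashed line.

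Between the control cells of the lines, 32 of the 51 tested genes of the wider list were called, 16 higher and 16 lower in NB4, beside the 52.4% of all genes. Among the partners of the members that were higher in NB4, TXNRD1 had a log2 fold change of 0.89, SRXN1 0.89, GCLM 0.89 and SLC7A11 1.83 (limma adjusted p = 5.06e-06, 1.54e-05, 8.34e-05 and 0.000252). In these 4 genes the lines were apart in every sample. So they were in 43 of the 51 genes of the list (18 higher and 25 lower in NB4), against 77.7% of all genes. Kasumi-1 was higher in SOD1 and GCLC, with log2 fold changes of -0.84 and -0.67. Of the 12 genes of glutathione synthesis, import and turnover tested, 6 were called higher and 3 lower in NB4, and of the 8 of the thioredoxin system 3 were called higher and 0 lower, with a median of -0.07. Of the 13 glutathione transferases tested, 2 were higher and 8 lower in NB4. GSTM3, GSTM1 and GSTA4 stood out with log2 fold changes of -6.37, -6.16 and -4.24, and transferase genes are similar in sequence, so fragments may have been shared among them. GPX7, a glutathione peroxidase of the endoplasmic reticulum, was lower in NB4 with a log2 fold change of -3.03, as were MGST2, GGT7 and MSRB3 with -2.60, -2.97 and -2.65. GGT1, which breaks down glutathione outside the cell, was higher in NB4 by 4.34, and GSTM4 and MSRB1 by 3.00 and 2.62.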

How the data were processed

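The mRNA-seq values of 12 samples were used as the authors deposited them, 1 FPKM value per gene symbol and sample. The submitters' processing notes name Trimmomatic, HISAT2, Cufflinks and HTSeq and the build hg38, and their versions and roles are not given in the sources used here. Values above 0 and below 1e-04 occur, so fragments were shared out by an estimate and the depth is unknown. The kit was stranded, and whether the counting used strand is not given.

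Of 20030 rows per sample, 27 whose symbols had become dates were left out. log2(FPKM + 0.1) was tested with limma 3.58.1 in R 4.3.3, with a mean-variance trend, over genes that averaged 0.1 FPKM or more in the samples of a fit and with adjustment over all of them. The 4 comparisons were OGP46 against control in each line, the interaction over 12 samples, and the control samples of both lines. No sample was dropped or imputed, and 0 samples held identical values. The test was tried on simulated data.

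Control and OGP46 samples with the same number deviated together across genes (r = 0.355, 0.622 and 0.197 in NB4, and 0.218, 0.157 and 0.395 in Kasumi-1), so the numbers were taken as pairs within a line. Across lines they were not pairs (r = -0.0487, 0.0176 and -0.00475). The labels state no pairing, so it rests on these same data. In NB4, 2 of 3 pairs were each other's closest match over the 11750 genes tested. Over the 6264 genes that averaged 5 FPKM or more, 3 of 3 were, as in Kasumi-1 over 11835 genes.

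The members and lists were chosen with earlier results of these data known. Named besides the members were genes of the wider list called with or without the block (at most 10 per comparison, by size), their 10 fixed partners, marker genes, overlapping genes, and GLRX, chosen after its values were seen. Alternatives were the pseudocount, the filter, TPM scaling, median centring, no trend, the block alone or with a scaling, leaving out each sample and, added after seeing the data, no minimum fold change.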

Additional observations from a re-analysis of the deposited data

Results flagged for a closer look

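The lines differed in their change with OGP46, by the interaction of line and treatment with the replicate number as a block, for 1 member and 4 genes of the wider list. None of the 5 passed without the block. With the block, calls of the wider list were 2 up and 2 down. With median centring or TPM scaling as well, they were 1 up and 2 down. GSR passed with the block and median centring but not with the block and TPM scaling. The difference of the log2 fold changes, NB4 less Kasumi-1, was 0.51 for GSR (limma adjusted p = 0.104 without and 0.0311 with the block), whose OGP46 samples were higher in 3 of 3 NB4 pairs and 2 of 3 Kasumi-1 pairs. For TXNIP it was 0.72 (0.457 and 0.0165), with 3 of 3 NB4 pairs higher and 0 of 3 Kasumi-1 pairs. For SESN2 it was 0.95 (0.327 and 0.05, just under 0.05 before rounding), and for SESN3 -0.60 (0.646 and 0.0377), which was lower in 3 of 3 NB4 pairs. For GSTM1 it was -1.31 (0.216 and 0.046), which rests on NB4 values of at most 0.220 FPKM, near the pseudocount. Without NB4 control replicate 1 it was -1.67 and passed without the block (adjusted p = 0.0365). GSTM1 was below the filter in the NB4 fit. It entered this one only through its Kasumi-1 values of 14.4 to 20.2 FPKM, so its passing is no support for a changed response. In NB4 control samples 1 to 3 GSTM1 was at 0.0352, 0.160 and 0.220 FPKM. CD34 was at 0.0617, 0.158 and 1.35% of its Kasumi-1 control mean in these samples, and a link was not tested. Groups of 3 samples were not tested for single outlying samples.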

How the results depend on the processing

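Between the control cells of the lines, every member and every gene of the wider list named for this comparison kept its direction under each alternative tried. The alternatives were not tried on HOOK2 or the marker genes. The number of members called there was 5 and became 9 without a minimum fold change, and PRDX6 lost its call after TPM scaling (-0.56). It was 5 to 6 when 1 sample was left out, with TXN called as well (-0.58, limma adjusted p = 0.000268) without NB4 control replicate 2. PRDX3 had an adjusted p of 0.0568 without NB4 control replicate 1, 0.0552 without NB4 control replicate 2 and 0.0638 without Kasumi-1 control replicate 3. With the replicate block, although the numbers are not pairs across the lines, the calls of the members and of the wider list were the same, and 6466 of all genes were called, against 6449 without it.

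In NB4 the number of genes called depended on the setting. It was 183 in the fit described, 117 with a pseudocount of 1, 6 without a filter, 0 after TPM scaling, 0 after median centring and 4 without a trend. It was 730 with the replicate block, 391 with the block and median centring, and 450 with the block and TPM scaling. Without a minimum fold change it was 302, and 2692 with the block. Leaving out 1 sample gave 0 to 396. It was 396 without OGP46 replicate 2, 0 without control replicate 1, 1 without control replicate 2, 2 without control replicate 3, 1 without OGP46 replicate 1 and 0 without OGP46 replicate 3. The 1 call of the wider list in NB4, GCLM, was lost (0 calls) without a filter, after TPM scaling, after median centring, without a trend and in 5 of the 6 fits that left out a sample, all but that without OGP46 replicate 2 (range 0 to 1). There were 3 calls with the block, 4 with the block and median centring (SESN2 and SLC7A11 up, SESN3 and MSRB3 down), and 3 with the block and TPM scaling. Without a minimum fold change there were 3, and 17 with the block. The members called then became 1, and 2 with the block. GSR kept its direction, between 0.35 and 0.59, and its adjusted p was 0.0952 after TPM scaling, 0.162 after median centring and 0.0649 without a trend. Median centring, with or without the block, turned PRDX3 to -0.0776, TXN to -0.077, GPX1 to -0.0845, GPX4 to -0.11, GCLC to -0.034, GSS to -0.0745, SOD1 to -0.10, SOD2 to -0.0841 and GLRX to -0.0635, and TPM scaling turned GPX4 to -0.0199 and SOD1 to -0.0109. Median centring moved the all-gene median in NB4 from 0.18 to -0.04 (log2), and PRDX2, PRDX5, PRDX6 and PRDX4, whose values were within their SE of 0, were then also below 0. The signs given here are those that turned for a value larger than its SE, 22 in NB4, 4 in the difference between the lines and 0 in Kasumi-1 among the genes and settings tried. Counting smaller values as well, 46, 38 and 19 signs turned, among them PRDX2, PRDX6 and CAT in NB4 and TXN and CAT in the difference when 1 sample was left out.

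In Kasumi-1 the number of genes called was 4 in the fit described. It was 2 with a pseudocount of 1, 1 without a filter, 24 with a minimum mean of 1 FPKM, 18 after TPM scaling, 18 after median centring and 0 without a trend. It was 73 with the replicate block, 93 with the block and median centring, and 99 with the block and TPM scaling. Without a minimum fold change it was 10, and 421 with the block, where 1 member and 3 genes of the wider list passed. Leaving out 1 sample gave 0 to 11. It was 0 without control replicate 1 or OGP46 replicate 1, 9 without control replicate 2, 2 without control replicate 3 and 11 without OGP46 replicate 3.

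For the difference between the lines, 0 genes passed in the fit described, 14 with a pseudocount of 1 and 14 without a filter. With the replicate block 237 genes passed, 1 of them a member and 4 of the wider list. With the block and median centring 144 passed, with 2 members and 3 of the wider list, and with the block and TPM scaling 129 passed, with 1 member, GPX1, and 3 of the wider list. Leaving out 1 sample gave 0 to 1, and 0 to 1 in the wider list, GSTM1 without NB4 control replicate 1. GSS turned to -0.0312 after TPM scaling and -0.0358 after median centring, with or without the block, and TXN, PRDX6 and CAT were then also below 0. The causes of these changes were not tested. No depth is known, so no limit of detection is given.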

Other observations

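The FPKM of the 10 members added up to 0.498 to 0.518% of the FPKM sum in NB4 samples, with control at 0.498 to 0.518% and OGP46 at 0.502 to 0.516%, so that the groups overlapped. In Kasumi-1 the members took 0.606 to 0.626% in control and 0.649 to 0.683% in OGP46 samples, without overlap. GPX1 made most of this difference, with a mean of 432 FPKM in control and 560.1 FPKM in OGP46 samples, while the OGP46 mean was lower for PRDX2, PRDX3, PRDX5, PRDX6, GPX4 and CAT. Not divided by the FPKM of all genes, the members' sums overlapped in Kasumi-1. They were 1739.4, 1943.5 and 1739.1 in control and 1924.8, 1904.3 and 1910.3 in OGP46 samples. In NB4 these sums were apart, at 1275.5, 1327.5 and 1244.6 in control and 1342.5, 1425.1 and 1462.8 in OGP46 samples.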
